A study of Mus musculus with 25 samples.

Results

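The genes of the first steps of T cell receptor signalling are described here across mouse regulatory and conventional T cells: Cd3d, Cd3e, Cd3g, Cd247, Lck, Zap70, Lat, Lcp2 and Tec. They were chosen by symbol, and all 9 were found among the 22985 gene symbols kept from the files. RNA-seq had been made from T cells of spleen and lymph node of C57BL/6 mice, in 25 libraries of 14 groups. Without stimulation there were 2 libraries of wild-type conventional T cells (WT Tconv), 4 of wild-type regulatory T cells (WT Treg), 3 from p65KO, 2 from c-RelKO and 2 from p65 c-Rel DKO regulatory T cells (DKO Treg). The NF-kB subunits p65 and c-Rel are encoded by Rela and Rel. Stimulated cells had spent 3 h in culture with CD3 and CD28 antibodies at 2 µg/ml plus IL-2: there were 2 libraries each of WT Tconv, WT Treg and DKO Treg, and 1 each of p65KO and c-RelKO Treg. Another 4 stimulated libraries belonged to an experiment with TAT-Cre, a recombinase that enters cells: no-deletion controls of WT Tconv and WT Treg, and Treg labelled FoxP3 del and NF-kB del, with 1 library each. Which Cre drove the deletions in the KO and DKO mice, which exons were removed, how the cells were sorted and whether replicates came from separate animals is not stated in the labels. The p-values therefore measure the spread between these libraries, which may be technical.

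The T cell receptor has no enzyme activity of its own and signals through the CD3 chains (Cd3d, Cd3e, Cd3g) and the zeta chain (Cd247), whose cytoplasmic tails carry paired tyrosines. LCK phosphorylates these tyrosines, ZAP-70 binds them and in turn phosphorylates the adaptors LAT and SLP-76 (Lcp2), on which phospholipase C gamma and Tec family kinases such as TEC are assembled. In regulatory T cells, the lineage specified by Foxp3, signals through this receptor are needed for the cells' suppressive function.

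Cd3g and Cd3d are neighbours transcribed away from each other. In the files' mm9 coordinates Cd3g lies at chr9:44777655-44788514 and Cd3d at chr9:44789869-44795135, with 1354 bases between them, and Cd3e follows at chr9:44806826-44817673. Cd247 lies at chr1:167718812-167801284, Lck at chr4:129225588-129250885, Zap70 at chr1:36818706-36839661, Lat at chr7:133507342-133513048, Lcp2 at chr11:33947201-33992280 and Tec at chr5:73146962-73259687. The 120 bases before the start site are printed for the linked pair Cd3g and Cd3d, and for Cd247, Lck, Zap70, Lcp2 and Tec, on which the results turn. They are from the RefSeq promoter table, which held all 9 genes in 12 windows and is built on GRCm38.p6, a later build than that of the files. Each runs 5′ to 3′ on the gene's strand and ends at the base before the start. Capitals mark matches to an ETS word (CAGGAAG), a RUNX word (TGTGGT) or an NFAT word (GGAAAA) on either strand.
Cd3g: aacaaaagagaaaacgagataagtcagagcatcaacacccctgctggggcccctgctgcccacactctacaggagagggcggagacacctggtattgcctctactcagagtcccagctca
Cd3d: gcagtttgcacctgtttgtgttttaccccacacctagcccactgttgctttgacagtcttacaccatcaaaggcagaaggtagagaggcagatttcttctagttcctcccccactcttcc
Cd247: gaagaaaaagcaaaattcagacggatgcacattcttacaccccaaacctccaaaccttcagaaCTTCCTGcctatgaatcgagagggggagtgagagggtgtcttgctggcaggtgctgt
Lck (upstream start): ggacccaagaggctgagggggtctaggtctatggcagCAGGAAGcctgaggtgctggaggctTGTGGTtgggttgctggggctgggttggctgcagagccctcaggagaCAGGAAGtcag
Lck (downstream start): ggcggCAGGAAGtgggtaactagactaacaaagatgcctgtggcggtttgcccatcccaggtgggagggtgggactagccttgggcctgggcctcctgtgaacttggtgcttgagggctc
Zap70 (first start): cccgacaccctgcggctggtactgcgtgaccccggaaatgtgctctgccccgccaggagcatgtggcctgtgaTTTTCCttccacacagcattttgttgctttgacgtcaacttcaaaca
Lcp2: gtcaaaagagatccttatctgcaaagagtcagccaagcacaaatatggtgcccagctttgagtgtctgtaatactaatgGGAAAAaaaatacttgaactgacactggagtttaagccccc
Tec: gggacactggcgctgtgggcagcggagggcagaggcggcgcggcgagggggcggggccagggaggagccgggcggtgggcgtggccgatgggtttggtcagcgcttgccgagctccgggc

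The printed stretches are chr9:44980432-44980551 on the minus strand for Cd3g, chr9:44981666-44981785 on the plus strand for Cd3d and chr1:165788561-165788680 on the plus strand for Cd247. Those of Lck are chr4:129573642-129573761 and chr4:129558373-129558492, both on the minus strand. Zap70 is shown at chr1:36761678-36761797 and Lcp2 at chr11:34046808-34046927, both on the plus strand, and Tec at chr5:72868449-72868568 on the minus strand. Over the 250 bases before each start, the ETS word was found in 5 of the 12 windows, in 4 of the 9 genes, against 10.8% of the 32851 windows of the whole table. In Cd247 it began 57 bases before the start, and before the upstream start of Lck it stood 83 and 11 bases away. The RUNX word was in 2 of the 12 windows against 14% of all windows, and the NFAT word in 2 of the 12 against 20.4%. A TATAAA box was in 0 of the 12 (12.4% of all), and the kappa-B decamer, the consensus bound by NF-kB, in 0 of the 12 (3.9% of all). The ETS and NFAT words share the letters GGAA, but no member's window held both. The 250 bases before Tec were 68.4% G and C and those before Cd3d 41.2%, against a median of 52.4% over all windows. These matches describe letters in a window and were not tested as binding sites.

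Values are FPKM as the authors deposited them, a level scaled to gene length and library size, so levels can be compared between genes. Implied depth was 15.1 to 51.9 M fragments a library. The library numbers in the labels form consecutive blocks, called runs here although the labels do not say what they mark. Runs 1 and 2 hold 1 WT Treg and 1 p65KO Treg library each, and runs 3 and 4 hold the other 17 libraries outside the TAT-Cre set. Foxp3 stood at 0.542 and 0.927 FPKM in unstimulated WT Tconv and at 129 to 351 in unstimulated WT Treg, but at 8.01 and 21.2 in unstimulated DKO Treg. Rel was at 1.76 to 2.23 FPKM in the c-RelKO and DKO libraries and at 27.5 to 298 in WT Treg. Rela was at 58 to 79.8 FPKM in p65KO and at 56.3 to 107 in DKO libraries, against 64.9 to 130 in WT Treg, and since the deleted exons are not given, these levels do not check the p65 deletion. Among the 21 libraries outside the TAT-Cre set, 3 are of doubtful label or purity, and 1 library of the TAT-Cre set goes against its label too. The early gene Egr1 stood at 178 FPKM in the library labelled unstimulated p65KO Treg replicate 3 and at 29.5 in the library labelled stimulated p65KO Treg, which goes against those labels. Unstimulated c-RelKO Treg replicate 2 had haemoglobin Hba-a1 at 13300 FPKM, Cd79a of B cells at 78 and Lyz2 of myeloid cells at 172. Calls, group means and correlations of the 9 genes that rest on these 3 libraries are given with and without them.

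**Figure D1:**
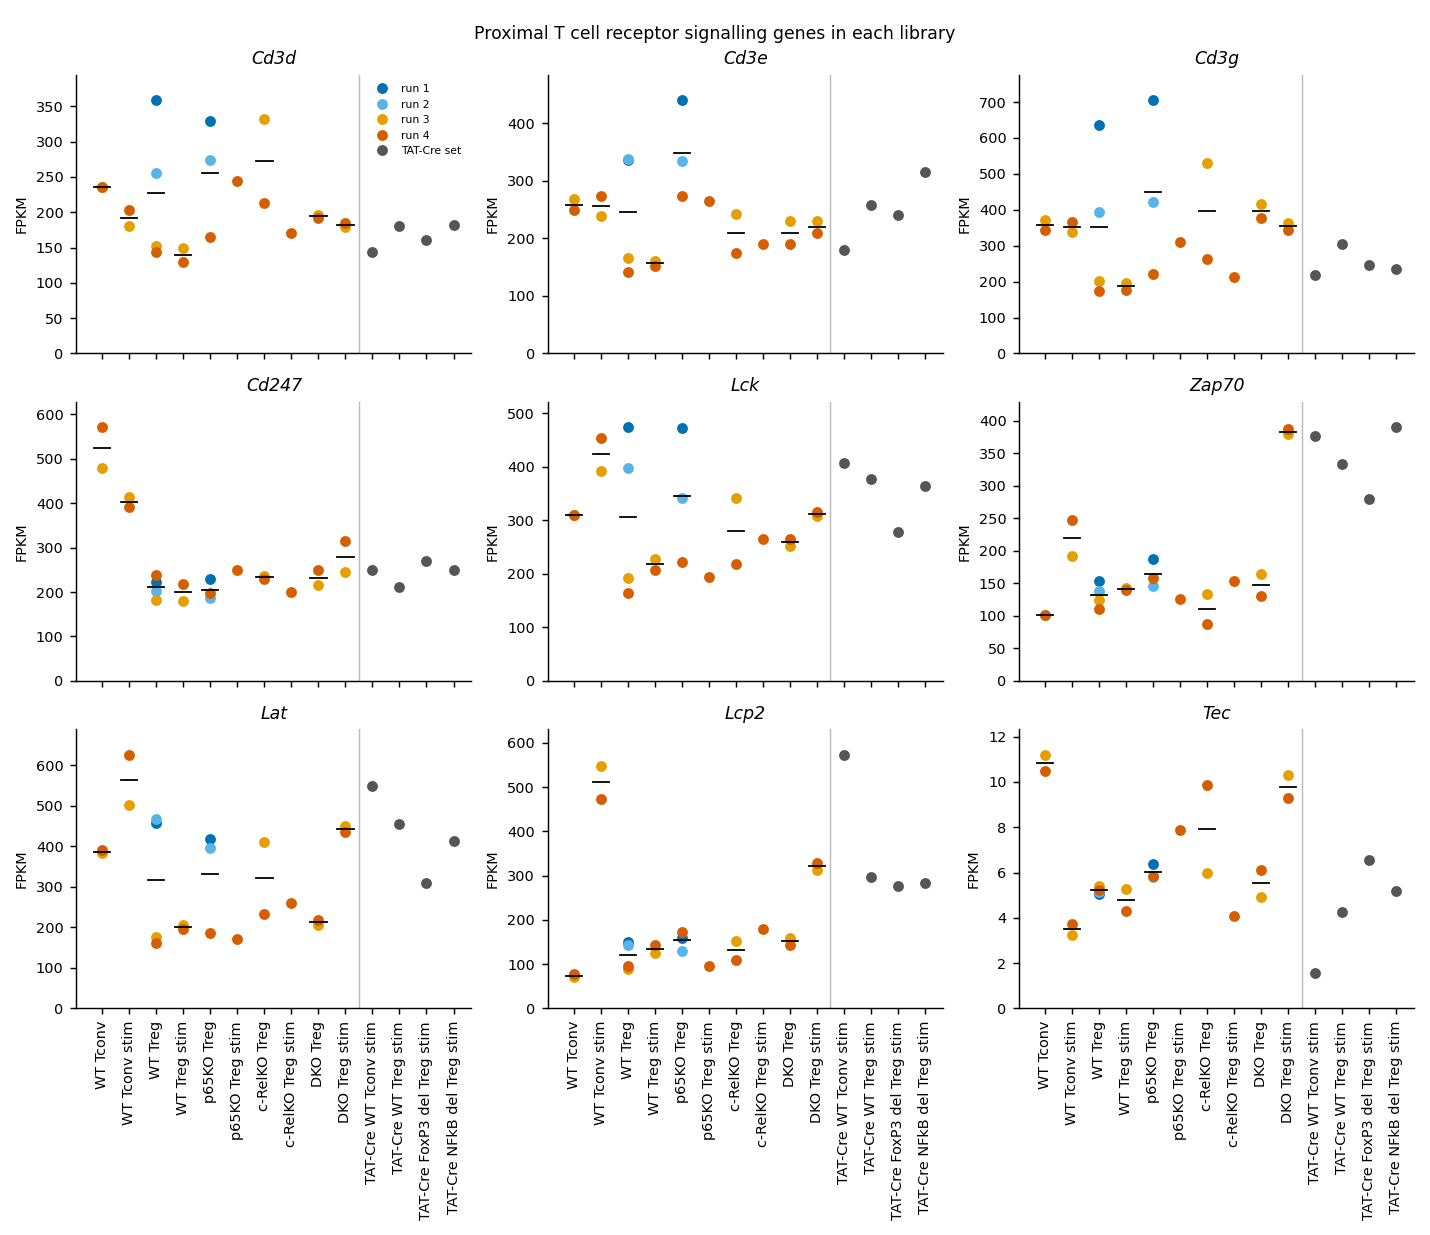
FPKM (linear axis from 0) of each of the 9 genes in each of the 25 libraries, by group. Points are libraries coloured by run, and horizontal bars are group means of groups with 2 or more libraries. Lcp2 reaches its highest levels among the 21 libraries left of the grey line in the 2 stimulated WT Tconv libraries, Zap70 in the 2 stimulated DKO Treg libraries, and Cd3g is spread from 175 to 635 FPKM within unstimulated WT Treg.

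The question of the first comparison is how far the proximal signalling genes differ between regulatory and conventional T cells before stimulation. The zeta chain gene Cd247 and the kinase gene Tec were lower in WT Treg than in WT Tconv. Cd247 measured 222, 203, 182 and 239 FPKM in the 4 WT Treg libraries against 480 and 571 in the 2 WT Tconv libraries, and the groups did not overlap. Its difference was -1.31 ± 0.16 in log2(FPKM + 1) (SE, adjusted p from limma 0.000158), which is 0.403 times the WT Tconv level. Tec measured 5.07, 5.15, 5.42 and 5.23 FPKM in WT Treg and 11.2 and 10.5 in WT Tconv. That difference was -0.93 ± 0.17 in log2 (adjusted p 0.00299, limma), with no overlap between groups, and it was -0.88 and no longer passed when WT Tconv replicate 1 was left out. Cd247 and Tec are named because they were called on these same values, and the share of all genes without overlap was not counted.

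These were the 2 of 9 genes called, both lower, where 12.6% of the 11532 genes tested were called in either direction. The 3 CD3 chains varied more between the WT Treg libraries than Cd247 did. Cd3g measured 635, 394, 201 and 175 FPKM in WT Treg replicates 1 to 4, from runs 1 to 4, and 371 and 344 FPKM in WT Tconv, from runs 3 and 4. The WT Treg libraries of runs 1 and 2 lay above WT Tconv and those of runs 3 and 4 below. The same held for Cd3d, at 359, 255, 152 and 143 FPKM in WT Treg against 235 in each WT Tconv library. Cd3e stood at 337, 339, 166 and 141 FPKM in WT Treg and at 269 and 249 in WT Tconv. Without a term for the run, the log2 differences were -0.15 for Cd3d (95% interval -0.88 to 0.58), -0.18 for Cd3e (-0.88 to 0.51) and -0.22 for Cd3g (-1.27 to 0.83), and none was called.

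Lck, the first kinase, and Lat, the membrane adaptor, had the same division. Lck measured 474, 398, 193 and 164 FPKM in WT Treg replicates 1 to 4 and 311 and 310 in WT Tconv. Lat measured 458, 468, 177 and 161 FPKM in WT Treg and 384 and 390 in WT Tconv. With the run as a term, 7 of 9 genes were called lower in WT Treg: Cd3d (-0.62 in log2), Cd3e (-0.61), Cd3g (-0.88), Cd247 (-1.35), Lck (-0.71), Lat (-1.12) and Tec (-0.93). The fit holds all 21 libraries, so the unstimulated p65KO libraries, among them the doubtful one of run 4, also enter through the run terms. That fit called 45.8% of all genes tested, so a count of 7 is to be read against a high background. Within run 3 and within run 4, each of these 7 genes was lower in the WT Treg library than in the WT Tconv library. These pairs are also part of the fit with the run term, which draws on them together with other libraries, and are not separate support. The share of all genes lower in both runs was not counted. Zap70 and Lcp2, the genes of the kinase and the adaptor downstream of the chains, were higher in both runs, at 0.37 ± 0.19 (adjusted p 0.224) and 0.65 ± 0.22 (adjusted p 0.0681) in log2 by limma without the run term, and neither was called. Lcp2 stood at 150, 144, 87.9 and 96.5 FPKM in WT Treg and 70.7 and 77.2 in WT Tconv.

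Other measures also differed between the runs. The early gene Nr4a1, which antigen receptor signals induce, stood at 62, 613, 1270 and 837 FPKM in WT Treg replicates 1 to 4 and at 258 and 223 in WT Tconv. The B cell marker list (6 of 6 genes found) summed to 5.1 to 58.8 FPKM in WT Treg and 2.14 to 3.14 in WT Tconv, the myeloid list (7 of 8 found) to 55.4 to 168 and 55.8 to 58.4, and the NK cell list (5 of 5) to 0.721 to 3.87 and 6.05 to 8.61. The erythroid list summed to 138, 534, 2.94 and 5.24 FPKM in WT Treg replicates 1 to 4 and to 0.572 and 3.96 in WT Tconv. The T cell list (4 of 4) summed to 1390 to 1620 FPKM in WT Treg and 848 to 976 in WT Tconv. The part of these in the differences was not tested. In bulk RNA, fewer cells of a type and less RNA per cell cannot be told apart.

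**Figure D2:**
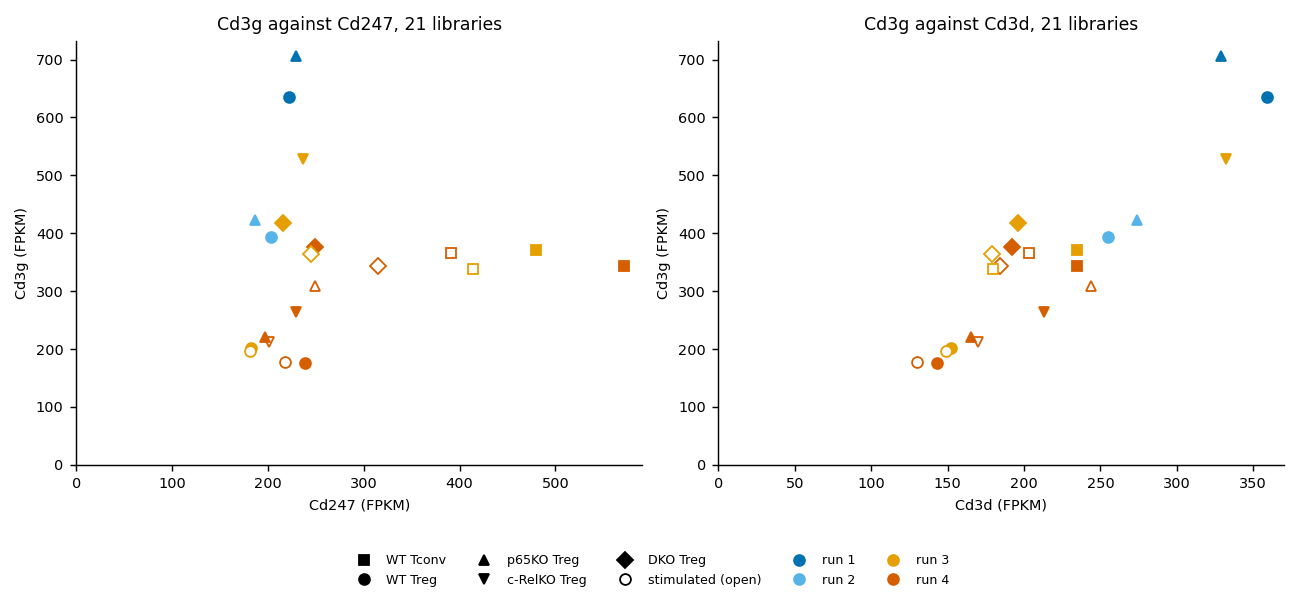
FPKM of Cd3g (vertical axes) against Cd247 (left) and against Cd3d (right) in the 21 libraries outside the TAT-Cre set, with shapes for genotype, open symbols for stimulated cells and colours for runs. Cd3g and Cd3d lie along one diagonal (Pearson r 0.89 in log2), while Cd247 is between 181 and 315 FPKM in all Treg libraries and between 391 and 571 in the WT Tconv libraries.

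The balance of the receptor chain genes is given by their ratios. The ratio of Cd3g to Cd247 FPKM was 0.772 and 0.603 in unstimulated WT Tconv and 2.86, 1.94, 1.1 and 0.735 in WT Treg replicates 1 to 4. In the paired libraries of run 3 it was 1.1 in WT Treg and 0.772 in WT Tconv, and in run 4 it was 0.735 and 0.603. In unstimulated DKO Treg it was 1.93 and 1.51. Zap70 over Lck was 0.65 and 0.672 in the WT Treg libraries of runs 3 and 4 and 0.326 in both WT Tconv libraries, but 0.323 and 0.35 in the WT Treg libraries of runs 1 and 2. These ratios are given as a description.

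Stimulation of WT Tconv for 3 h raised Lcp2 and Zap70 and lowered Tec. Lcp2, which encodes SLP-76, measured 70.7 and 77.2 FPKM before and 547 and 474 after, in runs 3 and 4. The change was 2.77 ± 0.25 in log2 (adjusted p 3.51e-05, limma), or 6.81-fold. Zap70 measured 101 in each unstimulated library and 192 and 247 FPKM after stimulation. It rose by 1.1 ± 0.22 in log2 (adjusted p 0.00476, limma), or 2.14-fold, and did not pass when stimulated WT Tconv replicate 2 was left out (0.92). Tec went the other way, from 11.2 and 10.5 to 3.25 and 3.73 FPKM, a difference of -1.40 ± 0.20 in log2 (adjusted p 0.000597, limma). Before and after values did not overlap for any of the 3 genes. They are named because they were called on these same values, and the share of all genes without overlap was not counted.

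In all, 3 of 9 genes were called in stimulated WT Tconv, 2 higher and 1 lower, with 11.9% of all genes called. With the run as a term it was 4 of 9 against 43.1%, the added gene being Cd247, which measured 414 and 391 FPKM after stimulation (-0.38 in log2, adjusted p 0.0242). Lck measured 393 and 455 FPKM after stimulation and Lat 501 and 626. Both were higher than before in both runs, at 0.45 (95% interval -0.51 to 1.40) and 0.53 (-0.56 to 1.62) in log2. With the run term the intervals were 0.05 to 0.84 and 0.09 to 0.98 (adjusted p 0.0689 and 0.0518, limma). Neither gene was called in either fit. The CD3 chains showed small differences: -0.30 for Cd3d, -0.02 for Cd3e and -0.02 for Cd3g in log2, none called.

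In WT Treg the same stimulation gave no call among the 9 genes, and none among all genes tested: 0% in limma without the run term and 0% with it, where 311 and 344 genes had an unadjusted p under 0.05 and none of the 9 did. Lcp2 measured 87.9 before and 126 FPKM after in run 3, and 96.5 and 143 in run 4. Zap70 measured 125 and 143 FPKM in run 3 and 110 and 140 in run 4. Both were higher after stimulation in both runs, by 0.51 and 0.56 in log2 for Lcp2 and by 0.19 and 0.34 for Zap70. With the run term the differences were 0.35 (95% interval -0.12 to 0.82) and 0.21 (-0.17 to 0.58). That fit also draws on other groups, among them the doubtful unstimulated p65KO library of run 4. Tec measured 5.42 and 5.28 FPKM in run 3 and 5.23 and 4.29 in run 4, with a difference of -0.11 (-0.47 to 0.26). For the CD3 chains the run term decided the size: Cd3g differed by -0.71 (-1.76 to 0.34) without it and by -0.05 (-0.46 to 0.36) with it, since the stimulated libraries come from runs 3 and 4. Egr1 went from 41.4 to 128 FPKM in run 3 and from 28.9 to 116 in run 4, against 17.8 to 714 and 15.8 to 574 in WT Tconv. Nr4a1 was already at 1270 and 837 FPKM in the unstimulated WT Treg libraries of these runs, and its part in the small differences was not tested.

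DKO Treg responded to stimulation with 3 of 9 genes called, all higher, against 9.99% of all genes. Zap70 measured 165 and 131 FPKM before and 379 and 388 after, a rise of 1.38 ± 0.22 in log2 (adjusted p 0.00145, limma), or 2.60-fold. Lcp2 measured 160 and 143 before and 313 and 329 FPKM after, which is 1.08 ± 0.25 in log2 (adjusted p 0.0164, limma). Tec rose here, from 4.92 and 6.11 to 10.3 and 9.28 FPKM, by 0.73 ± 0.20 in log2 (adjusted p 0.0307, limma). Each of the 3 genes was higher after stimulation in both runs, but Lcp2 and Tec did not pass when any 1 of the 4 DKO libraries was left out, which left 1 gene called.

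Lat measured 207 and 217 FPKM in unstimulated and 449 and 436 in stimulated DKO Treg. Its difference of 1.06 in log2 was called with the run term (adjusted p 0.00165, limma) and not without it (0.22). The run fit thus called 4 of 9, all higher, against 42.1% of all genes. Lck measured 253 and 266 before and 309 and 316 FPKM after (0.27 in log2, not called), and the CD3 chains differed by -0.16 to 0.07 in log2, none called.

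**Figure D3:**
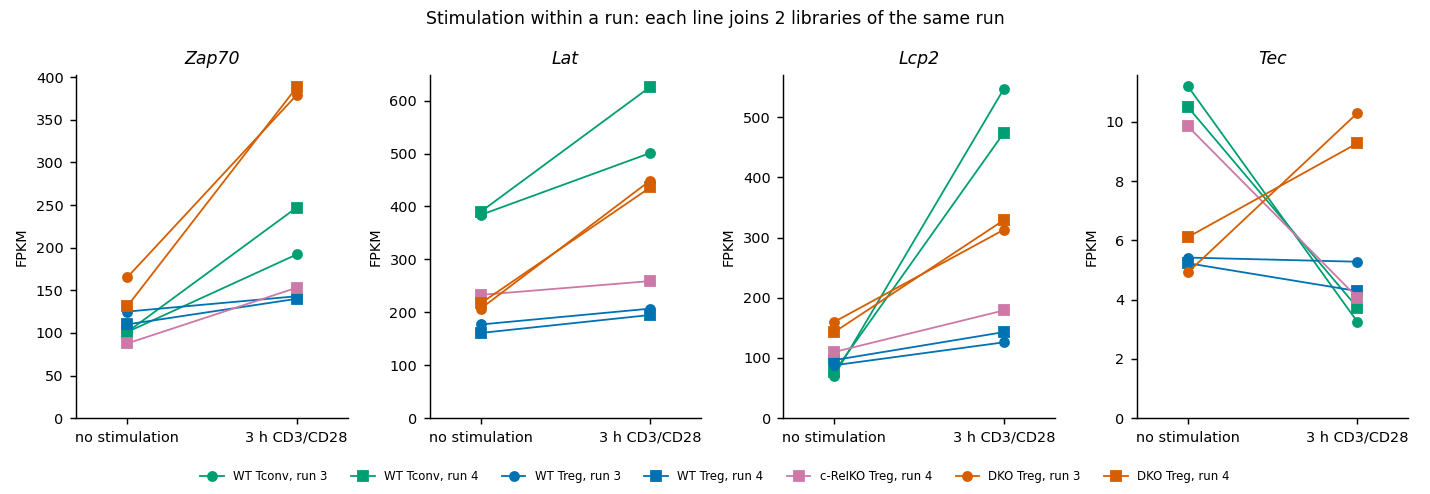
FPKM (linear axes from 0) of Zap70, Lat, Lcp2 and Tec without stimulation and after 3 h with CD3 and CD28 antibodies, each line joining the 2 libraries of one group and run. The p65KO pair, whose labels are in doubt, is left out. The steepest Lcp2 lines are those of WT Tconv and the steepest Zap70 lines those of DKO Treg, and the Tec lines fall in WT Tconv, rise in DKO Treg and fall in c-RelKO Treg (9.85 to 4.07 FPKM), whose unstimulated library is the one with haemoglobin RNA.

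The responses themselves were compared. The Lcp2 response of WT Treg was smaller than that of WT Tconv by 2.57 ± 0.33 in log2 (difference of responses -2.57, adjusted p 0.00462, limma). The Tec response differed by 1.29 ± 0.26 (adjusted p 0.0363), with a fall in WT Tconv and a difference of -0.11 that was not called in WT Treg. These were 2 of 9 genes, 1 in each direction, against 1.03% of all genes. With the run term 3 of 9 were called against 16% of all genes, the added one being Zap70 (-0.90, adjusted p 0.0309). The call for Tec was lost (adjusted p above the threshold, difference 1.16 to 1.41) when any of 8 single libraries was left out: WT Treg replicate 2 or 4, or any WT Tconv, stimulated WT Tconv or stimulated WT Treg library.

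Between DKO and WT Treg, 0 of 9 responses differed without the run term, against 0.971% of all genes, and 4 of 9 had an unadjusted p under 0.05. Zap70 was nearest, with 1.27 ± 0.29 in log2 (adjusted p 0.0578, limma). The run fit called 2 of 9 higher, against 14% of all genes: Zap70 (1.17, adjusted p 0.0116) and Tec (0.84, adjusted p 0.0437). A comparison of the DKO response with the WT Tconv response was added after the values had been seen. There, Tec differed by 2.13 ± 0.28 in log2 (adjusted p 0.00158, limma), 1 of 9 genes called against 0.598% of all genes. The run fit called 3 of 9 against 6.85%: Tec, Cd247 (0.64, adjusted p 0.0463) and Lcp2 (-1.69, adjusted p 0.00891). These comparisons share the WT libraries with each other and with those above, so they are not independent.

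After stimulation, Lcp2 and Cd247 were lower in WT Treg than in WT Tconv. Lcp2 measured 126 and 143 FPKM in WT Treg and 547 and 474 in WT Tconv, a difference of -1.92 ± 0.25 in log2 (adjusted p 0.000425, limma), or 0.264 times. Cd247 measured 181 and 218 FPKM against 414 and 391, at -1.01 ± 0.19 (adjusted p 0.00511, limma), and was not called when stimulated replicate 1 of either cell type was left out (-0.97 and -0.88). Both were lower in both runs. Lat measured 207 and 195 FPKM in WT Treg against 501 and 626 in WT Tconv, at -1.47 (95% interval -2.56 to -0.38, adjusted p 0.106). Without the run term 2 of 9 genes were called lower against 6.64% of all genes, and with it 8 of 9 were called lower against 37%. Tec was the exception, with 5.28 and 4.29 FPKM in WT Treg and 3.25 and 3.73 in WT Tconv (0.36, 95% interval -0.06 to 0.78, not called).

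In p65KO Treg without stimulation, 0 of 9 genes differed from WT Treg, against 0.0434% of all genes without and 8.82% with the run term. At an unadjusted p under 0.05 in limma the count was 0 without and 1 with the run term, that gene being Cd3e. In the pairs of runs 1 and 2 the p65KO library was within 0.845 to 1.31 times the WT Treg library for all 9 genes. Cd3e measured 441 against 337 FPKM in run 1, 334 against 339 in run 2, and 273 against 141 in run 4, where the p65KO library is the one of doubtful label. Its log2 difference was 0.59 (95% interval -0.03 to 1.2) without and 0.47 (0.14 to 0.79, adjusted p 0.0732) with the run term. Lcp2 was at 158 and 150, 130 and 144, and 173 and 96.5 FPKM in the same 3 pairs, so that only the pair of run 4 reached 1.79-fold. In these pairs the myeloid list summed to 141 against 168, 116 against 88.9 and 182 against 68.2 FPKM, and its part was not tested. Lck measured 473 against 474 FPKM in run 1, 341 against 398 in run 2 and 222 against 164 in run 4. Lat measured 418 against 458, 395 against 468 and 185 against 161 FPKM. The spread of Lck and Lat between runs was thus larger than their differences between genotypes within a run.

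In c-RelKO Treg, 0 of 9 genes were called without the run term, against 10.6% of all genes, with 1 of 9 at an unadjusted p under 0.05 by limma. Once the run was a term, 5 of 9 were called higher than WT Treg, against 41.6%: Cd3d (0.80), Cd3g (0.95), Lck (0.52), Lat (0.80) and Tec (0.49). Cd3g measured 529 FPKM in c-RelKO and 201 in WT Treg of run 3, and 264 and 175 in run 4. Lat measured 410 against 177 FPKM in run 3 and 233 against 161 in run 4. Tec measured 5.96 against 5.42 FPKM in run 3 and 9.85 against 5.23 in run 4, so the larger difference was that of the library with haemoglobin and B cell RNA. In the c-RelKO library of run 3 the B cell list summed to 12.5 FPKM, the myeloid list to 145, the NK cell list to 32.8 and the erythroid list to 3.81, against 5.1, 55.4, 0.76 and 2.94 in the WT Treg library of that run. In run 4 the same sums were 215, 300, 12.9 and 20300 FPKM in c-RelKO and 5.64, 68.2, 0.721 and 5.24 in WT Treg. All 4 sums were thus above those of WT Treg in both runs, and their part in the differences was not tested. Without the 3 doubtful libraries and with the run term, 6 of 9 were called on 1 c-RelKO library, all higher, against 41.4% of all genes, and Tec was not among them (0.13).

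DKO Treg without stimulation had 0 of 9 genes called without the run term, where 33% of all genes were called, and none of the 9 had an unadjusted p under 0.05 in limma. With it 2 of 9 were called higher, where 61.2% of all genes were called. Cd3g measured 417 FPKM in DKO and 201 in WT Treg of run 3, and 377 and 175 in run 4, a ratio of 2.07 and 2.15 (1.03 in log2, adjusted p 0.000541). Lck measured 253 against 193 and 266 against 164 FPKM (0.45, adjusted p 0.0415). Cd3d, the linked neighbour of Cd3g, stood at 196 against 152 and 192 against 143 FPKM (0.35, adjusted p 0.0603). A count of 2 of 9 is below the share of all genes called. Without the 3 doubtful libraries, 6 of 9 were called in the fit with the run term, all higher, with Lcp2 among them, against 65.4% of all genes. The myeloid list summed to 135 FPKM in DKO and 55.4 in WT Treg of run 3, and to 128 and 68.2 in run 4. The NK cell list summed to 8.11 to 13.8 FPKM in DKO and 0.721 to 3.87 in WT Treg, and the part of these sums was not tested.

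Zap70, Lcp2 and Tec, the genes called in the DKO response, were higher in stimulated DKO Treg than in stimulated WT Treg. Both comparisons use the same stimulated DKO libraries, so the second is not separate support. Zap70 measured 379 and 388 FPKM in DKO against 143 and 140 in WT Treg, at 1.43 ± 0.22 in log2 (adjusted p 0.00027, limma), or 2.70-fold. Lcp2 measured 313 and 329 FPKM against 126 and 143, at 1.25 ± 0.25 (adjusted p 0.00197). Tec measured 10.3 and 9.28 FPKM against 5.28 and 4.29, at 0.90 ± 0.20 (adjusted p 0.00325). These 3 of 9 genes were all higher. The count is near the share of all genes called, 32.7%, so it does not set the 9 genes apart. The fit with the run called 8 of 9 higher, Cd3d being the exception (adjusted p 0.05), where 62.7% of all genes were called. Lat, at 449 and 436 FPKM against 207 and 195, is among these 8 (1.13, adjusted p 0.000475, limma). The stimulated WT Treg control of the TAT-Cre set is outside the fit and has 1 library. It stood at 333 FPKM for Zap70, 297 for Lcp2, 456 for Lat and 4.27 for Tec. Zap70, Lcp2 and Lat were thus nearer the DKO values, and Tec nearer those of WT Treg.

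Beside these DKO values stand those of other cell types. In stimulated DKO Treg the NK cell list summed to 5.93 to 6.6 FPKM and the myeloid list to 106 to 111, against 0.802 to 1.16 and 52 to 63.7 in stimulated WT Treg, and Klra8 was at 0 in both. The B cell list summed to 2.94 to 5.23 against 4.2 to 4.73 FPKM and the erythroid list to 9 to 349 against 2.63 to 3.39. The Treg list (Foxp3, Il2ra, Ikzf2) summed to 1080 to 1180 FPKM in stimulated DKO and 892 to 1070 in stimulated WT Treg, while Foxp3 alone was at 6.34 and 8.31 against 336 and 295. The part of these in the differences was not tested.

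The stimulated p65KO and c-RelKO groups have 1 library each, which the fit assumes to vary like the other groups. In c-RelKO 0 of 9 genes were called, against 0.347% of all genes without and 8.55% with the run term, and none of the 9 had an unadjusted p under 0.05 in limma in either fit. Zap70 measured 153 FPKM there and 140 in the WT Treg library of the same run, Lcp2 179 and 143, and Lat 259 and 195. In p65KO, whose label is in doubt, 0 of 9 were called without the run term against 1.01% of all genes, with 1 of 9 at an unadjusted p under 0.05 in limma. The run fit called 3 of 9 higher against 27.2%, all CD3 chains: Cd3d at 244 against 130 FPKM, Cd3e at 266 against 152 and Cd3g at 309 against 178. The myeloid list summed to 129 FPKM in this library and to 63.7 in the WT Treg library of the same run, and its part was not tested. Its Lcp2, at 95.6 FPKM, was below the 173 FPKM of the library labelled unstimulated.

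**Figure D4:**
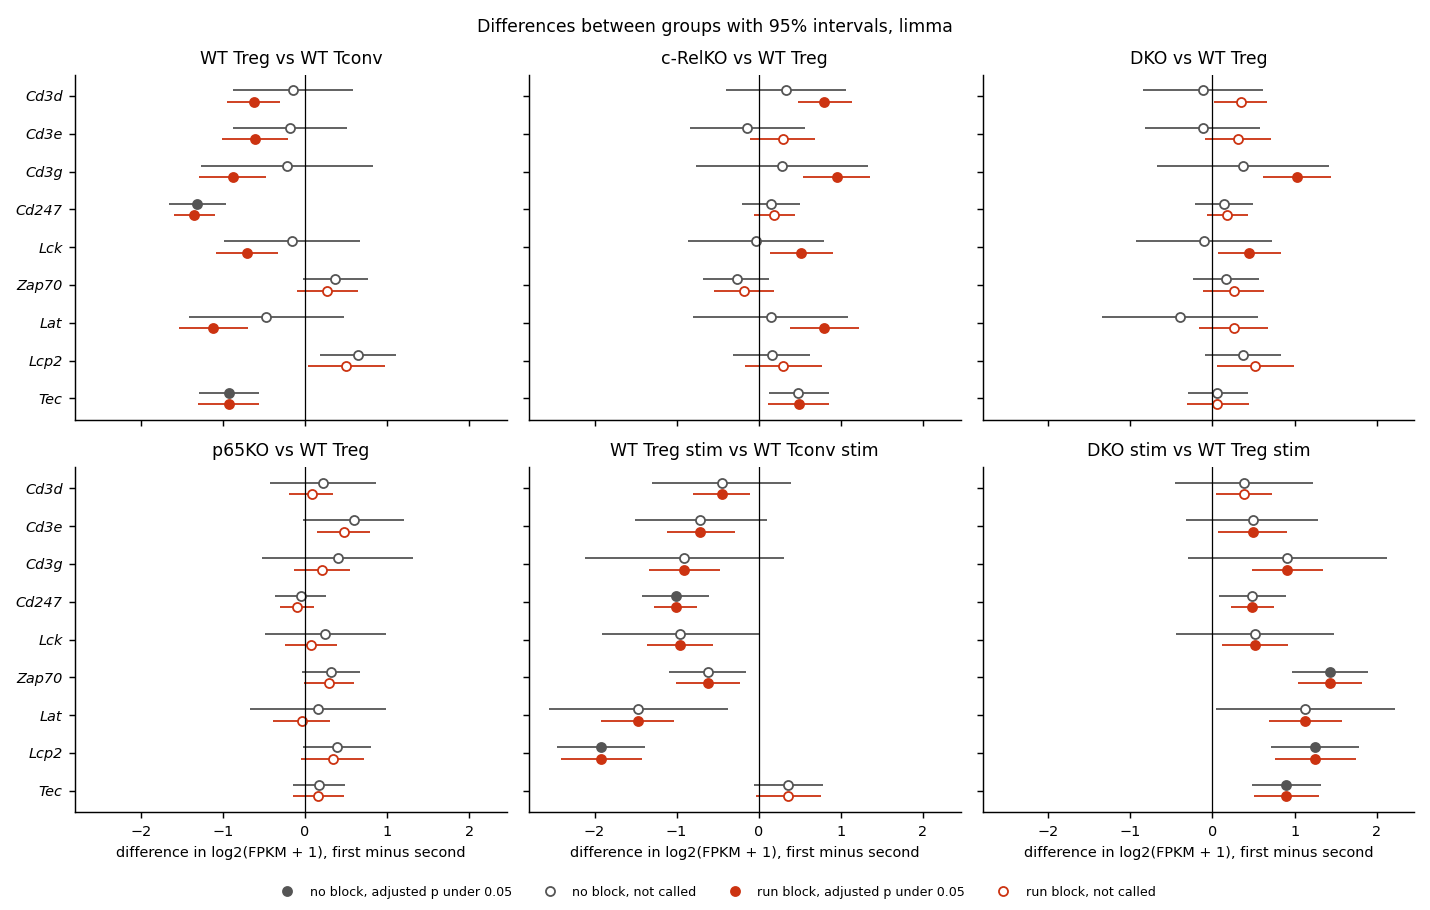
Differences in log2(FPKM + 1) with 95% intervals from limma for the 9 genes in 6 comparisons, without a block (grey) and with the run as a term (red). Filled points have an adjusted p under 0.05. For WT Treg against WT Tconv the intervals of Cd3d, Cd3e, Cd3g, Lck and Lat cross 0 in grey and lie below it in red, and in stimulated DKO against stimulated WT Treg the filled grey points are Zap70, Lcp2 and Tec.

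In the TAT-Cre set there is 1 library for each label and no test. Lcp2 was at 573 FPKM in the WT Tconv control and at 297, 276 and 284 in the WT Treg control, the FoxP3 del and the NF-kB del library. Tec was at 1.56 FPKM in the WT Tconv control and at 4.27, 6.57 and 5.17 in the Treg libraries. WT Tconv thus had the highest Lcp2 and the lowest Tec of the 4. Zap70 was at 376, 333, 280 and 390 FPKM in the same order, and Lat at 548, 456, 309 and 412. Cd247 was at 250 FPKM in the WT Tconv control and 212, 270 and 250 in the Treg libraries, so that here the cell types overlapped. The library labelled FoxP3 del had Foxp3 at 266 FPKM and the WT Treg control 86.7, which goes against the label, and no direction is drawn from it. Rel was at 38.7 FPKM in the NF-kB del library and 171 in the WT Treg control.

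Ordered by level in unstimulated WT Tconv, Cd247 was at 526 ± 63.9 FPKM (SD, n = 2), Lat at 387 ± 4.13, Cd3g at 358 ± 19.1, Lck at 310 ± 1.1, Cd3e at 259 ± 13.9, Cd3d at 235 ± 0.242, Zap70 at 101 ± 0.314, Lcp2 at 74.0 ± 4.6 and Tec at 10.8 ± 0.498. In stimulated WT Tconv Lcp2 stood at 511 ± 51.6 FPKM, a level between those of Lck (424 ± 44.1) and Lat (563 ± 88.2). Across the 10 groups outside the TAT-Cre set, Lcp2 followed the order stimulated WT Tconv, stimulated DKO Treg (321 ± 11.2), stimulated c-RelKO Treg (179, 1 library), p65KO Treg (154 ± 21.8, n = 3), DKO Treg (151 ± 12), stimulated WT Treg (134 ± 12), c-RelKO Treg (132 ± 29.8), WT Treg (120 ± 31.9, n = 4), the stimulated p65KO library (95.6) and WT Tconv. The neighbours p65KO and DKO Treg, stimulated WT Treg and c-RelKO Treg, and c-RelKO Treg and WT Treg differed by less than their SD, and DKO and stimulated WT Treg shared the value 143. Without the doubtful libraries the Lcp2 means were 144 FPKM in p65KO Treg (n = 2) and 153 in the 1 c-RelKO Treg library left. The groups also hold different runs: the WT Treg libraries of runs 1 and 2 stood at 150 and 144 FPKM and those of runs 3 and 4 at 87.9 and 96.5, a mean of 92.2, which is beside the 95.6 of the stimulated p65KO library.

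Among the same 10 groups, Zap70 was highest in stimulated DKO Treg (383 ± 6.57 FPKM, n = 2), followed by stimulated WT Tconv (220 ± 38.9), with the other 8 between 101 and 164, the upper value being 166 without the doubtful libraries. Tec was highest of the 10 in unstimulated WT Tconv (10.8 ± 0.498 FPKM) and stimulated DKO Treg (9.80 ± 0.737), whose libraries nearly met at 10.5 and 10.3, and lowest in stimulated WT Tconv (3.49 ± 0.334). Tec is the least abundant of the 9, with 69 to 1276 implied fragments a library. The confidence bounds the authors deposited with its values lie 5.6 to 24.1% either side, against at most 3.83% for the other 8 genes. Cd247 was at 526 ± 63.9 and 403 ± 15.9 FPKM in the 2 WT Tconv groups and between 200 and 280 in the 8 Treg groups outside the TAT-Cre set, and in the 7 left without the doubtful libraries.

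Across the 21 libraries outside the TAT-Cre set, which share runs and groups, Lck and Lat had a Pearson r of 0.93 in log2(FPKM + 1), and of 0.95 over the 17 libraries of runs 3 and 4. Cd3d and Cd3g had 0.89 and 0.82, Cd3g and Lck 0.82 and 0.71, and Cd3g and Cd247 0.20 and 0.49. Tec and Lcp2 had -0.41 and -0.43. Over the 18 libraries left without the doubtful ones, r was 0.91 for Lck and Lat, 0.92 for Cd3d and Cd3g, 0.84 for Cd3g and Lck, 0.15 for Cd3g and Cd247 and -0.36 for Tec and Lcp2. From the 8347 genes with a mean of at least 5 FPKM, some were left out by name. These were predicted genes, RIKEN and other clones, small RNAs, receptor segments and symbols starting with Rn. Among the rest, those with the highest r over the 21 libraries were Lat (0.925), Vav1 (0.921) and Sp110 (0.917) for Lck, and Lck, Lrch1 (0.878) and Utp14a (0.874) for Lat. For Cd3e they were Grcc10 (0.879), Wdr41 (0.866) and Ebag9 (0.862), and for Tec Mcart1 (0.803), Fam46c (0.724) and Riok3 (0.719). Over the 18 libraries these pairs had an r of 0.686 to 0.918. These are descriptions of likeness over libraries that also differ by run.

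Around the 9 genes, 44 others of the pathway in 5 lists were all found and tested. In WT Treg against WT Tconv, 5 of 44 were higher and 3 lower, where 12.6% of all genes were called, with a median log2 difference of 0.15 against 0 over all genes. The regulators of LCK and ZAP-70 had 2 of 10 higher and 1 lower: Dok2, an inhibitory adaptor, by 1.21 ± 0.18 in log2 (adjusted p 0.000797, limma), and Ubash3b, a phosphatase that dampens receptor signals, by 1.08 ± 0.18 (adjusted p 0.00159). Cd2, an adhesion receptor of the coreceptor list, was higher by 1.47 ± 0.25 (adjusted p 0.00162) and Stim1, the calcium sensor of the endoplasmic reticulum, lower by 1.03 ± 0.14 (difference -1.03, adjusted p 0.00037). With the run term the counts were 12 higher and 17 lower of 44, where 45.8% of all genes were called, with a median of -0.23.

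In stimulated WT Tconv 8 of 44 were higher and 6 lower, and in DKO Treg 5 higher and 6 lower, where 11.9% and 9.99% of all genes were called. The medians were 0.09 and -0.13 in log2. Ubash3b rose in both, by 1.95 ± 0.21 and by 2.32 ± 0.21 in log2 (adjusted p 0.000102 and 1.35e-05, limma). So did Sla, an adaptor that promotes receptor turnover (2.14 ± 0.30 and 2.60 ± 0.30), and Malt1, a protease that links the receptor to NF-kB (1.61 ± 0.26 and 1.47 ± 0.26). Stim1 fell in WT Tconv (-0.89 ± 0.16, adjusted p 0.00307, limma), and Sla2, an adaptor related to Sla, fell in DKO Treg (-1.84 ± 0.27, adjusted p 0.000976). The Ubash3b response of WT Treg was smaller than that of WT Tconv (-1.70, adjusted p 0.0106) and that of DKO Treg larger than that of WT Treg (2.06, adjusted p 0.00159, limma). In WT Treg 0 of 44 were called, without or with the run term. The run fit gave 16 higher and 13 lower in WT Tconv and 10 higher and 17 lower in DKO Treg, against 43.1% and 42.1% of all genes.

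In unstimulated DKO against WT Treg 2 of 44 were higher and 6 lower (median -0.25, against 0.06 over all genes), and 14 and 14 with the run term, where 33% and 61.2% of all genes were called. Themis, an adaptor best known in thymocytes, was higher by 2.59 ± 0.42 in log2 (adjusted p 0.000446, limma). Txk, a Tec family kinase, was lower (-1.95 ± 0.33, adjusted p 0.000511), as were Fyn, a kinase related to LCK (-0.84 ± 0.17), and Ubash3b (-1.19 ± 0.18). After stimulation 4 of 44 were higher and 8 lower, and 12 and 15 with the run term, against 32.7% and 62.7% of all genes. In log2, Themis then differed by 3.78 ± 0.49, Txk by -2.59 ± 0.38, the adaptor gene Fyb by -1.51 ± 0.23 and the Ras activator Rasgrp1 by -1.79 ± 0.22. Stimulated WT Treg against stimulated WT Tconv had 3 of 44 higher and 1 lower (6 and 17 with the run term), against 6.64% and 37% of all genes, among them Dok2 at 0.91 ± 0.21, the adaptor genes Nck2 at 0.92 ± 0.17 and Grb2 at 0.57 ± 0.14, and Ptprc, the phosphatase CD45, at -1.12 ± 0.25. In p65KO and c-RelKO Treg 0 of 44 were called without the run term, before or after stimulation. With it, the unstimulated counts were 3 higher and 2 lower in p65KO and 10 and 6 in c-RelKO, against 8.82% and 41.6% of all genes. The stimulated counts with it were 5 higher and 9 lower in p65KO and 2 higher and 1 lower in c-RelKO, against 27.2% and 8.55%. Without the 3 doubtful libraries 43 of the 44 genes were tested, and the fit with the run term gave 14 higher and 4 lower in c-RelKO and 0 in p65KO, both unstimulated.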

How the data were processed

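Libraries were prepared with an Illumina TruSeq kit from RNA isolated on Qiagen RNeasy columns, per the labels' protocols. Per the submitters' processing notes the authors used bcl2fastq, TopHat, Cufflinks and mm9 (versions, annotation and strand setting: not given in the sources used here), and they deposited 1 table of FPKM per library with 23699 entries. From these, 22985 symbols were kept after 250 with an entry that Cufflinks did not mark OK in some library were left out, and 181 symbols on several entries were summed. A fragment count was implied for each gene by its FPKM and the upper bound Cufflinks gave. In each library 72 to 75.7% of the implied counts under 15 fragments were within 0.02 of a whole number. The sum of the implied counts of a library is its implied depth. No count test was run. Start coordinates were raised by 1 to count from 1.

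limma 3.58.1 in R 4.3.3 was fitted on log2(FPKM + 1) with a trend, over 11532 genes at 1 FPKM or more in at least 2 of 21 libraries, with 1 mean per group, 11 residual degrees of freedom and no block. Benjamini-Hochberg adjustment ran over all genes within a comparison, with calls at an adjusted p under 0.05. A second fit added the run as a term over the same 21 libraries. Fold changes are on the log2(FPKM + 1) scale, which understates low genes. The code was tested on simulated data. The pathway genes named are those called with the smallest p, up to 4 per comparison, in the fit without a block. The 9 genes, the lists and the tests were chosen with earlier results of these data known. The deviations from the group means of same-numbered replicates of different groups had a mean correlation of 0.222 (lowest -0.499), against -0.209 between libraries of different runs. In a group of 2 libraries the deviations are mirror images, so the value between runs is in part fixed by that within runs. Replicate numbers follow the runs in most groups, but not in WT Treg, p65KO Treg or the groups with 1 library. The number was therefore not taken as a pairing. Between libraries of the same run the mean correlation was 0.432 (lowest 0.0357). Alternatives were another pseudocount (0.1), no filter, size factors, run and replicate blocks, no trend, and leaving out libraries.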

Additional observations from a re-analysis of the deposited data

Results flagged for a closer look

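For 3 differences between responses to stimulation the test of the difference itself passed. The Lcp2 response was smaller in WT Treg than in WT Tconv (-2.57 in log2, adjusted p 0.00462, limma), with Lcp2 higher after stimulation in both runs in each cell type. The Tec response differed by 1.29 (adjusted p 0.0363) between WT Treg and WT Tconv, with Tec lower after stimulation in both runs in each cell type. It differed by 2.13 (adjusted p 0.00158) between DKO Treg and WT Tconv, where Tec was higher after stimulation in both DKO pairs and lower in both WT Tconv pairs. Among the 4 unstimulated WT Treg libraries no value of the 9 genes stood apart by Dixon's test. It looks for a lone value and cannot show the division between runs described above for the CD3 chains, Lck and Lat.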

How the results depend on the processing

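Counts below are of the 9 genes called by limma, with the count of the fit without a block first and the share of all genes called in brackets where the report does not give it. The pseudocount of 0.1 and the fit without a trend moved no count and no call. The filter moved DKO against WT Tconv responses from 1 to 2 (0.84%), and size factors moved DKO against WT Treg responses from 0 to 1 (0.884%).

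With the run as a term the count went from 2 to 7 for WT Treg against WT Tconv, from 0 to 5 for c-RelKO and 0 to 2 for DKO against WT Treg, from 2 to 8 for stimulated WT Treg against WT Tconv, from 3 to 8 for stimulated DKO and 0 to 3 for stimulated p65KO against WT Treg, from 0 to 2 for DKO against WT Treg responses and from 1 to 3 for DKO against WT Tconv responses. Lck, slightly below WT Treg without a block and not called, was called higher with it in c-RelKO (0.52) and DKO (0.45).

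The following were chosen after seeing the data. Without the 3 doubtful libraries the count moved for DKO against WT Treg responses, from 0 to 1 (0.902%). With the run term added as well, counts were 8 for WT Treg against WT Tconv (51.8%, Lcp2 then called higher), 7 for the WT Tconv response (49.6%), 6 each for c-RelKO and DKO against WT Treg, 9 each for stimulated WT Treg against WT Tconv (43.8%) and stimulated DKO against WT Treg (67.4%), 4 for DKO against WT Treg responses (20%) and 3 for DKO against WT Tconv responses (10.9%). Signs opposite to the fit without a block were then called for Cd3e (0.61) and Lck (0.93) in c-RelKO, and for Cd3d (0.39), Cd3e (0.45), Lck (0.54) and Lat (0.33) in DKO. Runs 3 and 4 alone gave 7 for WT Treg against WT Tconv (33.8%), 5 for c-RelKO (24.9%, Lck 0.61), 3 for DKO (52.5%, Lck 0.54), 7 for stimulated WT Treg against WT Tconv (25.7%), 8 for stimulated DKO (54.2%), 2 for stimulated p65KO (17.1%) and 2 for DKO against WT Tconv responses (2.83%). The cause of these moves was not tested.

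With the replicate block, whose numbers follow the runs in only part of the groups, counts were 5 for the WT Treg response (27%), 2 for c-RelKO (28.4%), 4 for DKO (42.7%), 6 for stimulated WT Treg against WT Tconv (14.7%), 6 for stimulated DKO (43.7%), 7 for WT Treg against WT Tconv responses (10.6%), 6 for DKO against WT Treg responses (8.61%) and 2 for DKO against WT Tconv responses (1.4%). Leaving out 1 library at a time gave 1 to 3 for WT Treg against WT Tconv (3.08 to 20.3%, 3 without WT Treg replicate 3, with Lcp2 added), 2 to 3 for the WT Tconv response (3.46 to 5.27%), 1 for the DKO response (1.68 to 6.99%), 0 to 1 for c-RelKO (3.8 to 10.9%, 1 without replicate 1, Tec), 1 to 2 for stimulated WT Treg against WT Tconv (2.37 to 2.66%), 3 to 4 for stimulated DKO (16.5 to 24.1%), 1 to 2 for WT Treg against WT Tconv responses (0.0607 to 1.58%) and 0 to 1 for DKO against WT Treg responses (0.235 to 1.12%, 1 without WT Treg replicate 4, Zap70). Most groups have 2 libraries. Depth limits Tec most.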
